A study of Mus musculus with 18 samples.

Results

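The oocyte NLRP genes are a family of 10 mouse genes, Nlrp2, Nlrp4a, Nlrp4b, Nlrp4c, Nlrp4e, Nlrp4f, Nlrp9a, Nlrp9b, Nlrp9c and Nlrp14. They were picked by a list of symbols, with no threshold on a measured value, from the 55098 genes kept in the files. RNA was measured by Smart-seq2, an amplification method for small samples, in 18 libraries of mouse embryos, and a library holds 5 to 10 pooled embryos. For the siRNA experiment, 4 groups of 3 libraries carried siCon or siEchs1 (siRNA against Echs1, a mitochondrial enoyl-CoA hydratase that consumes crotonyl-CoA) and were collected at the stages labelled E2C and L2C. In the treatment experiment, 3 groups of 2 libraries came from wild-type embryos given DMSO, sodium acetate or sodium crotonate and collected at E2C. The design text has the salts given to zygotes and the embryos taken as early 2-cell embryos. The labels give no strain, siRNA sequence, delivery, dose or collection time, and they do not spell out L2C. They do not say that replicate tubes came from separate animals, so the p-values below measure the spread between these tubes, which may be technical.

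NLRP proteins carry a nucleotide-binding NACHT domain and leucine-rich repeats. Several relatives, such as Nlrp3, sense danger signals in immune cells and build inflammasomes, whereas the genes described here are expressed mainly in oocytes and their RNA is inherited by the embryo. Nlrp5, a related maternal-effect gene, encodes a subunit of the subcortical maternal complex, a protein assembly under the membrane of eggs and early embryos. Nlrp2 and Nlrp4f proteins have been linked to that complex, and Nlrp14 is a maternal factor needed by early embryos. Much maternal RNA is degraded around the 2-cell stage, when the embryo's own genome is switched on.

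Values are FPKM, which scale the fragments of a gene by its exon length and by the size of the library, so levels can be compared between genes per length. Total FPKM differed between libraries, from 705511 to 1122231, so an equal FPKM is not an equal share of 2 libraries, and the summed levels below are also given as a percent of total FPKM. Rescaling to a common total without mitochondrial and ribosomal RNA moved 55 of the 70 group means of the NLRP genes by more than 1 SD. That count depends on the common total chosen and does not compare groups. The files hold no read counts, so the depth behind each value is unknown. Because each library is a bulk sample, fewer embryos or cells with a transcript and less RNA per cell cannot be told apart. The cDNA was primed with oligo-dT, so a change in poly(A) tails and a change in RNA amount cannot be told apart either. Echs1 itself measured 27.5 to 32.5 FPKM in siCon E2C against 0.71 to 5.88 in siEchs1 E2C, and 24.4 to 39.2 in siCon L2C against 0.89 to 4.32 in siEchs1 L2C. Replicate 3 of siEchs1 E2C stood apart from its group: its rank correlation over genes with replicates 1 and 2 was 0.668 and 0.718, against 0.900 between those 2 libraries. Mitochondrial RNA took 13.1 to 17.1% of the total in siCon E2C, 1.70 to 10.4% in siEchs1 E2C, 7.62 to 11.2% in siCon L2C and 0.834 to 2.28% in siEchs1 L2C. The summed level of 7 blood markers was 63.0 to 82.3 FPKM in siCon E2C against 2.89 to 11.7 in siEchs1 E2C, and 93.9 to 126 against 3.52 to 18.8 at L2C. The 10 cumulus and granulosa cell markers summed to 2.16 to 9.78 FPKM across the siRNA groups, with Amh and Ptx3 at 0 in both E2C groups. Of these 10 markers, 2 averaged at least 1 FPKM in each E2C group and 1 in each L2C group. Of 12 oocyte markers, 10 to 12 averaged at least 1 FPKM in each siRNA group, and 9 rose and 1 fell in siEchs1 at E2C, while 10 rose and none fell at L2C. They summed to 7640 to 8650 FPKM in siCon E2C, 4940 to 16100 in siEchs1 E2C, 1350 to 1970 in siCon L2C and 13700 to 19000 in siEchs1 L2C. Of 8 markers of the 2-cell embryo, 6 fell in siEchs1 at each stage, and their sum was 1020 to 1250 against 239 to 425 FPKM at E2C and 1100 to 1600 against 73.8 to 176 at L2C. The 6 oviduct markers summed to 115 to 199 FPKM in siCon L2C against 4.59 to 28.9 in siEchs1 L2C, and the 8 sperm and testis markers to 5.66 to 84.9 FPKM over the siRNA groups. The part of mitochondrial RNA and of these markers in the results on the NLRP genes was not tested, except that the fit was repeated after rescaling without mitochondrial and ribosomal RNA.

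In GENCODE M21 on GRCm38 (mm10), 9 of the 10 genes lie on chromosome 7 and Nlrp4f lies on chromosome 13 (65177111 to 65205977, minus strand). Nlrp9c (chromosome 7, 26322473 to 26403700, minus strand), Nlrp4a (26435113 to 26476142, plus strand) and Nlrp9a (26535023 to 26575615, plus strand) are close neighbours. Nlrp2 (5298547 to 5351035, minus strand), Nlrp4c (6045161 to 6105150), Nlrp4b (10687789 to 10730168), Nlrp9b (19991465 to 20073306), Nlrp4e (23301192 to 23362277) and Nlrp14 (107166990 to 107198102) lie elsewhere on the chromosome, the last 5 on the plus strand. All 10 are annotated as protein coding, with coding sequences of 2589 nt (Nlrp4b) to 3138 nt (Nlrp2). Coding identity was 77.8 to 93.9% within the Nlrp4 genes, 82.8 to 87.7% within the Nlrp9 genes and 58.1 to 63.1% for the other 32 pairs. Only Nlrp4e had stretches as long as a 150-nt read in common with another annotated gene: 3.38% of its 150-nt stretches occurred elsewhere, mainly in Gm16443. At 50 nt the share was 36.7% for Nlrp4e, 10.7% for Nlrp4c, 7.79% for Nlrp9b and 6.07% or less for the other genes, so values of Nlrp4e are the least certain. Nlrp2 shares exonic bases with Gm18757 on the opposite strand and Nlrp9b with Gm18877 on its own strand, and the FPKM files do not keep strand.

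RefSeq promoters (GRCm38.p6) were matched for 9 of the 10 genes. The pair Nlrp9c and Nlrp9a is shown because both promoters are nearly the same, 195 of 203 aligned bases being identical (96.1%), while Nlrp9c and Nlrp9a RNA differed in level and in their values under siEchs1. The pair Nlrp4c and Nlrp4b is shown because these promoters were the next most alike of those compared (77.1% over 210 bases). Both RNAs were among the 8 of 10 NLRP genes that rose in siEchs1 at L2C. The median over the 36 pairs of promoters compared was 58.0%. Where a gene had several promoters, only the first was compared. The other promoters of Nlrp4a and Nlrp4b are therefore not in this ranking or median. Each run below holds the 250 bases before the start site, 5′ to 3′ on the gene's strand, and capitals mark the E-box CANNTG, the core motif of basic helix-loop-helix factors such as Figla, and the homeobox core TAATTA or TAATTG, all searched on both strands.
Nlrp9c, chr7:26403701-26403950, minus strand: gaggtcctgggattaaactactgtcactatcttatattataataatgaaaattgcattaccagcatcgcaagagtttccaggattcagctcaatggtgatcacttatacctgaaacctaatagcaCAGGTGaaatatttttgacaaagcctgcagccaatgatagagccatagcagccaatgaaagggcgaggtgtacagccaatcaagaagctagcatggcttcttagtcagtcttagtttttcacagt
Nlrp9a, chr7:26534773-26535022, plus strand: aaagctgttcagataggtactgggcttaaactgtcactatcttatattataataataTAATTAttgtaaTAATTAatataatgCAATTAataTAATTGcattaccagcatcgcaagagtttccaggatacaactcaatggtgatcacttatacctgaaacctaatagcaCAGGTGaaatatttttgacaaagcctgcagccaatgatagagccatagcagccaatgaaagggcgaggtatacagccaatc
Nlrp4c, chr7:6044911-6045160, plus strand: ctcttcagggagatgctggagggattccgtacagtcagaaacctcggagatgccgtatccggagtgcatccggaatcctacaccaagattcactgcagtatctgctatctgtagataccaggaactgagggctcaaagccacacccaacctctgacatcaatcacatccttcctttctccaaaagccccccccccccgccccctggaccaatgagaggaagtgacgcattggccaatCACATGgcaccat
Nlrp4b, chr7:10687543-10687792, plus strand: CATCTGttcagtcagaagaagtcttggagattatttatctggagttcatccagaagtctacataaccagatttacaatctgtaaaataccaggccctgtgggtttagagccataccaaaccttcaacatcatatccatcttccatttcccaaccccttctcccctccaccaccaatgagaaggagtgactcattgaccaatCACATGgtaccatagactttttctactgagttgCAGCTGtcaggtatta

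Nlrp9a carries 34 bases with no partner in Nlrp9c, at positions -194 to -161 from its start site, and its 4 homeobox cores begin at positions -193, -181, -167 and -158. Nlrp9c has no homeobox core in its window. Each of the pair has 1 E-box of the form CAGGTG, at -125 in Nlrp9c and -81 in Nlrp9a, and 3 copies of CCAAT. The 9 genes had 11 windows, since Nlrp4a and Nlrp4b had 2 each. An E-box was present in 9 of the 11 windows, against 66.2% of 32817 promoters of the same length. The form CAGGTG, which is included in CANNTG, was present in 2 of 11, against 17.2%. CCAAT was present in 8 of 11, against 33.8%, in Nlrp4a in 1 of its 2 windows. The 2 windows of Nlrp4b overlap, so some sites are counted in both. By gene, an E-box was present in 7 of 9, and so was CCAAT. A homeobox core was present in 2 of 11, against 11.3%, TATAAA in 1 of 11, against 12.4%, and CCGCCC in 1 of 11, against 32.7%. These matches describe letters in the windows and were not tied to binding.

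All 10 genes measured at least 1 FPKM in all 18 libraries, from 1.38 FPKM for Nlrp4c in a siCon L2C library to 1829 FPKM for Nlrp14 in a siEchs1 E2C library. In siCon E2C, Nlrp9c (1547 ± 105 FPKM, SD, n = 3) and Nlrp4f (1333 ± 184) led the family, and their libraries overlapped with each other in level. Nlrp14 (321 ± 91.3), Nlrp4a (233 ± 36.1), Nlrp4e (227 ± 10.96), Nlrp9a (191 ± 21.9) and Nlrp9b (167 ± 24.6) formed a middle group. Nlrp4b (57.1 ± 16.3), Nlrp2 (13.3 ± 2.62) and Nlrp4c (5.37 ± 1.80) were the lowest. The 10 genes summed to 3958, 4071 and 4256 FPKM in the siCon E2C libraries, on average 0.38% of the total FPKM.

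**Figure D1:**
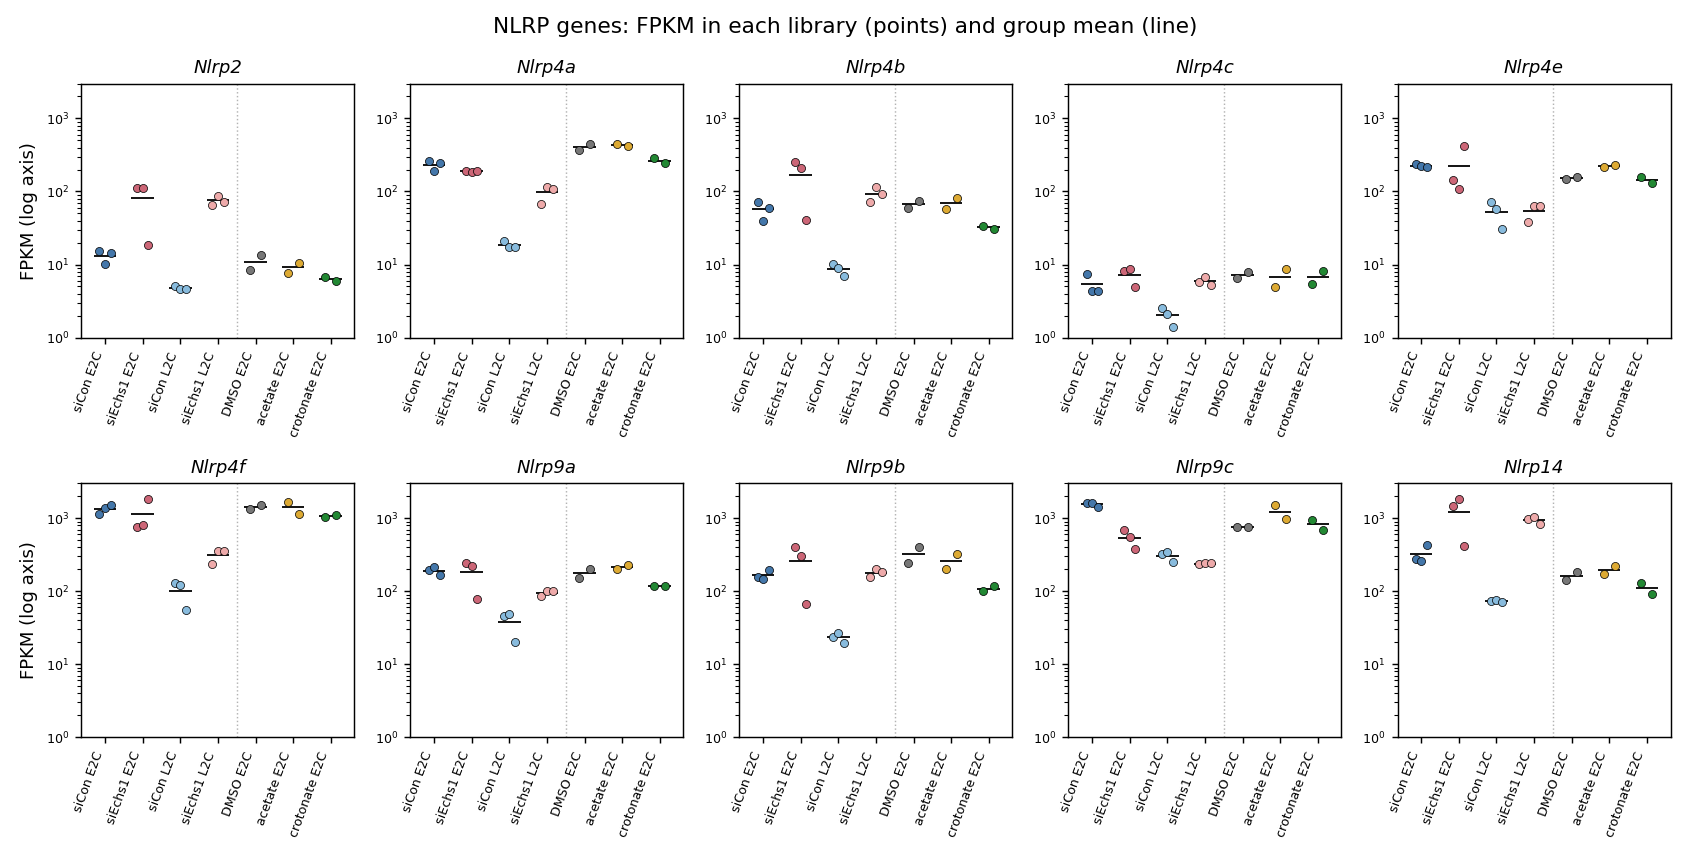
FPKM of each NLRP gene (log axis) in the 18 libraries; points are libraries, lines are group means, and the dotted line separates the siRNA and the treatment experiments, whose files were normalized library by library. In siCon L2C every gene sits below its siCon E2C libraries, and in siEchs1 E2C replicate 3, the right-hand point, lies apart from replicates 1 and 2 for most genes.

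Between E2C and L2C, most NLRP genes fell in siCon embryos. The summed level was 4095 ± 150 FPKM at E2C and 629.8 ± 131 at L2C (SD, n = 3 each), a ratio of 0.154. As a percent of total FPKM it was 0.38 ± 0.0135 and 0.0803 ± 0.0202, a ratio of 0.211. In limma's fit over 17652 genes on log2(FPKM + 1), 9 of the 10 genes fell at an adjusted p under 0.05, where 14.4% of all genes tested fell and 50.2% were called in either direction. The median log2 difference was -2.37 for the 10 genes and 0.51 for all genes, where 6326 rose and 2544 fell. After quantile normalization the split of all genes was 4240 against 4141, with a median of 0.01, and after rescaling without mitochondrial and ribosomal RNA it was 7582 against 1918, with a median of 0.77. All 10 NLRP genes then fell after quantile normalization and 8 after rescaling. All 10 genes were lower in every L2C library than in every E2C library, a pattern that 21.0% of all genes showed, while 42.8% were higher in this way. This comparison asks which transcripts change between both stages without the siRNA against Echs1.

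Nlrp4f, a gene linked to the subcortical maternal complex, measured 1137, 1362 and 1501 FPKM in siCon E2C and 128, 121 and 56.2 in siCon L2C. Its 3 L2C libraries were far below all E2C libraries, and the log2 difference was -3.78 ± 0.41 (SE; adjusted p = 2.03e-05). Nlrp4a measured 263, 193 and 244 FPKM at E2C and 21.2, 17.4 and 17.3 at L2C. The stages were as far apart, with 7.98% of the E2C level left against 7.65% for Nlrp4f, and the log2 difference was -3.57 ± 0.29 (adjusted p = 4.545e-06).

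Nlrp9c, the leading member in most siCon libraries, measured 1599, 1615 and 1427 FPKM at E2C and 325, 340.1 and 251 at L2C. Its log2 difference was -2.35 ± 0.28 (adjusted p = 3.65e-05), and it kept 19.7% of its level, so its share of the family sum was 33.5 to 40.4% at E2C and 46.0 to 52.4% at L2C. Nlrp14 measured 275, 262 and 426 FPKM at E2C and 74.0, 76.2 and 71.2 at L2C, a log2 difference of -2.07 ± 0.46 (adjusted p = 0.00246). The fall was smaller than that of Nlrp4f but left no overlap between the stages. Nlrp9b (log2 difference -2.78), Nlrp4b (-2.57), Nlrp9a (-2.39), Nlrp4e (-2.15) and Nlrp4c (-1.06) also fell.

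Nlrp2 measured 15.3, 10.3 and 14.2 FPKM at E2C and 5.15, 4.60 and 4.66 at L2C. Its libraries did not overlap, but its log2 difference of -1.28 ± 0.55 did not pass the test (adjusted p = 0.0691), with a 95% interval of -2.48 to -0.09. It passed when the 2 groups were fitted alone (adjusted p = 0.00276) and after quantile normalization (log2 difference -2.07, adjusted p = 0.00373). Nlrp4c did not pass after rescaling without mitochondrial and ribosomal RNA (log2 difference -0.84, adjusted p = 0.0656), when siCon E2C replicate 1 was left out (adjusted p = 0.0837) or when siCon L2C replicate 3 was (0.0619).

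**Figure D2:**
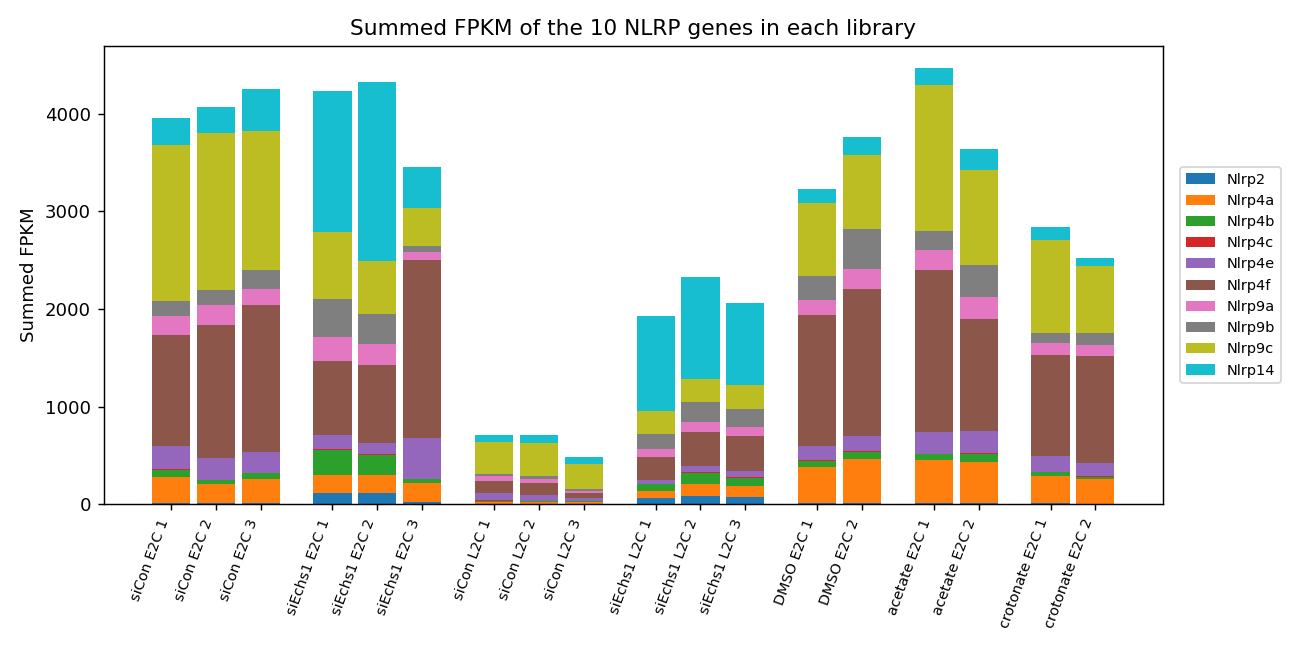
Stacked FPKM of the 10 NLRP genes in each library, with 1 bar per library and 1 colour per gene. The siCon L2C bars reach 479 to 706 FPKM and the siEchs1 L2C bars 1927 to 2329, and Nlrp14 makes up 34.2 and 42.3% of the bars of siEchs1 E2C replicates 1 and 2 against 12.2% in replicate 3.

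At E2C, 3 of the 10 NLRP genes were called with the siRNA against Echs1, in both directions, which is near the share over all genes. The family sum was 4003 ± 480.0 FPKM against 4095 ± 150 in siCon, with overlapping libraries. As a percent of total FPKM it was higher in each siEchs1 library (0.47, 0.544 and 0.484%) than in each siCon library (0.394, 0.367 and 0.379%), a ratio of means of 1.31, so the direction of the sum depended on this scaling. Of the 10 genes, 2 rose (Nlrp2 and Nlrp14) and 1 fell (Nlrp9c), where 11.0% of all genes tested rose, 9.31% fell and 20.3% were called in either direction. The median log2 difference was 0.03 for the 10 genes and 0.15 for all genes, of which 1934 rose and 1644 fell. The split was 1659 against 1928 after quantile normalization and 2733 against 1233 after rescaling, and the same number of NLRP genes, 3, was called under both. Without overlap between the libraries, 1 NLRP gene was higher (Nlrp2) and 2 were lower (Nlrp4a and Nlrp9c), where 19.0% of all genes were higher and 15.5% lower in this way. The comparison addresses the effect of lowering Echs1 on embryo RNA at this stage.

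Nlrp14 measured 1447, 1829 and 420.1 FPKM in siEchs1 E2C. Replicates 1 and 2 were above all siCon E2C libraries (262 to 426 FPKM) while replicate 3 lay within their range. The log2 difference was 1.72 ± 0.46 (adjusted p = 0.0201). Nlrp2 measured 113, 112 and 18.3 FPKM, all above the siCon range of 10.3 to 15.3, with a log2 difference of 2.15 ± 0.55 (adjusted p = 0.01685). Both calls were lost when the 2 groups were fitted alone (adjusted p = 0.0886 for Nlrp14 and 0.08175 for Nlrp2).

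Each of these calls also depended on single libraries. Nlrp14 did not pass without replicate 1 or 2 of siCon E2C (adjusted p = 0.0685 and 0.07635), nor without replicate 1 or 2 of siEchs1 E2C (0.0557 and 0.0862), nor without the filter on low values (0.0544). Nlrp2 did not pass without replicate 2 or 3 of siCon E2C (adjusted p = 0.0665 and 0.05145), nor without replicate 1 or 2 of siEchs1 E2C (0.05216 and 0.07555). Nlrp9c measured 682, 547 and 383 FPKM in siEchs1 E2C, in each library below the siCon range of 1427 to 1615. Its log2 difference was -1.56 ± 0.28 (adjusted p = 0.00301), and leaving out any 1 library or changing any other setting tried did not end this call.

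The other 7 genes did not pass at E2C. Nlrp4b measured 254, 209 and 41.2 FPKM against 72.5, 40.05 and 58.8 in siCon, a log2 difference of 1.21 with a 95% interval of 0.01 to 2.42 (adjusted p = 0.143). Nlrp9b measured 398, 305 and 67.5 FPKM against 157, 149 and 195, a log2 difference of 0.28 with an interval of -0.84 to 1.41. In both, replicates 1 and 2 were above every siCon library and replicate 3 was not. Nlrp4a, with 189, 183 and 193 FPKM, was just below its siCon range of 193 to 263 (log2 difference -0.30, adjusted p = 0.509). Nlrp4c, Nlrp4e, Nlrp4f and Nlrp9a had log2 differences of -0.36 to 0.38, with adjusted p from 0.460 to 0.755.

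Replicate 3 of siEchs1 E2C differed from replicates 1 and 2 in most members, and in both directions. The mean of replicates 1 and 2 was 6.14 times that of replicate 3 for Nlrp2, 5.62 times for Nlrp4b, 5.21 times for Nlrp9b and 3.90 times for Nlrp14. For Nlrp4e and Nlrp4f it was replicate 3 that was higher, by 3.33 and 2.34 times: Nlrp4e measured 146, 109 and 424 FPKM and Nlrp4f 755, 799.7 and 1819.8. Nlrp4a was alike in all 3. Without replicate 3, 4 genes rose and 1 fell: Nlrp2 (log2 difference 3.01, adjusted p = 5.045e-06), Nlrp14 (2.37, 2.415e-05), Nlrp4b (2.03, 0.000283) and Nlrp9b (1.07, 0.00612) rose, and Nlrp9c (-1.34, 0.000742) fell. The count over all genes then went from 3578 to 6496, of which 4055 were higher and 2441 lower. Mitochondrial RNA was 2.83, 1.70 and 10.4% of the total in replicates 1, 2 and 3, and its part in the difference between these libraries was not tested.

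**Figure D3:**
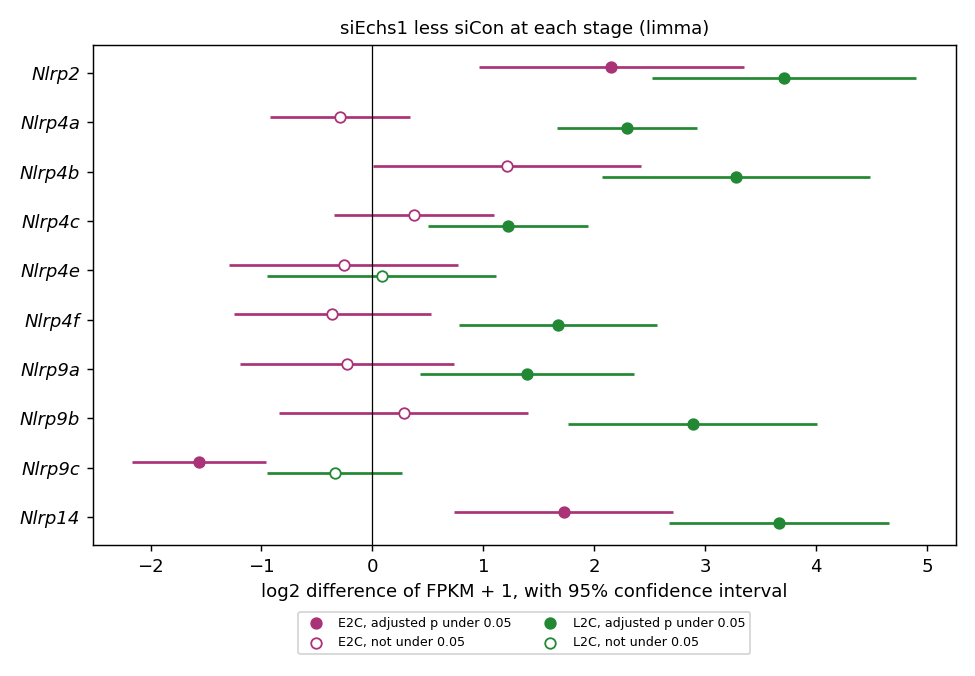
Log2 difference of siEchs1 less siCon for each NLRP gene at E2C and L2C, with 95% confidence intervals from limma; filled points have an adjusted p under 0.05. At L2C 8 genes sit above 0, between 1.22 and 3.71, while Nlrp4e and Nlrp9c have intervals that include 0.

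At L2C, 8 of the 10 genes were higher in siEchs1 than in siCon and none was called lower, where 21.9% of all genes rose, 26.9% fell and 48.8% were called in either direction. The sum was 2107 ± 204 FPKM in siEchs1 against 629.8 ± 131 in siCon, or 0.294 ± 0.0300 against 0.0803 ± 0.0202% of total FPKM. The median log2 difference was 1.98 for the 10 genes and -0.08 for all genes. The same 8 genes were higher in every siEchs1 library than in every siCon library, which 30.5% of all genes showed. Nlrp9c was lower in this way, as were 32.6% of all genes.

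Nlrp14 measured 971, 1043 and 846 FPKM in siEchs1 L2C against 74.0, 76.2 and 71.2 in siCon L2C. The groups were far apart, with a mean ratio of 12.9 and a log2 difference of 3.67 ± 0.46 (adjusted p = 0.000109). Nlrp2 measured 66.3, 87.9 and 72.4 FPKM against 5.15, 4.60 and 4.66, a mean ratio of 15.7 and a log2 difference of 3.71 ± 0.55 (adjusted p = 0.000249). Nlrp14 thus supplied 41.0 to 50.4% of the family sum in siEchs1 L2C, while Nlrp9c supplied 10.4 to 12.1%.

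Among the Nlrp4 genes, Nlrp4b measured 71.5, 117 and 91.1 FPKM against 10.0, 8.91 and 6.87 (log2 difference 3.28 ± 0.56, adjusted p = 0.000558). Nlrp4a measured 67.2, 117 and 109 FPKM against 21.2, 17.4 and 17.3 (log2 difference 2.29 ± 0.29, adjusted p = 0.000115). Nlrp4f measured 233, 353 and 354 FPKM against 128, 121 and 56.2 (log2 difference 1.67 ± 0.41, adjusted p = 0.00527). In these 3 genes no siEchs1 library reached down to a siCon library. Nlrp4c, the member with the lowest level, measured 5.80, 6.80 and 5.25 FPKM against 2.54, 2.11 and 1.38, and rose by 1.22 on the log2 scale (adjusted p = 0.00943). Nlrp4e measured 37.9, 62.4 and 63.6 FPKM against 71.0, 57.6 and 30.8. Its groups overlapped, and its log2 difference was 0.08 with a 95% interval of -0.95 to 1.11 (adjusted p = 0.900).

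Nlrp9b, which is also known as a sensor in gut epithelium, measured 156, 199.7 and 183 FPKM in siEchs1 L2C against 23.4, 27.1 and 19.7 in siCon L2C. It rose by 2.89 ± 0.52 on the log2 scale (adjusted p = 0.000759). Nlrp9a measured 86.3, 101 and 99.4 FPKM against 45.8, 49.1 and 19.9 (log2 difference 1.40 ± 0.44, adjusted p = 0.0206). Its call was lost without replicate 3 of siCon L2C (log2 difference 0.99, adjusted p = 0.09145), and leaving out siEchs1 L2C replicate 2 (0.0577) or 3 (0.0579) also ended it. Nlrp9c measured 233, 242 and 240.5 FPKM, in each library below the siCon range of 251 to 340.1, and its log2 difference of -0.34 (95% interval -0.95 to 0.27) did not pass (adjusted p = 0.332).

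**Figure D4:**
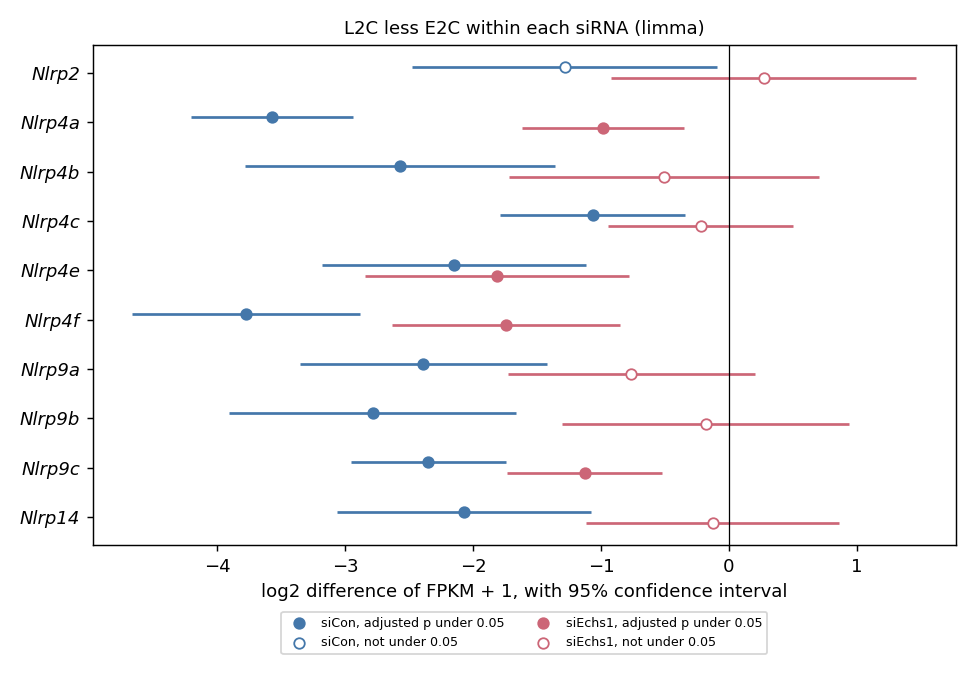
Log2 difference of L2C less E2C for each NLRP gene within siCon and within siEchs1, with 95% confidence intervals from limma; filled points have an adjusted p under 0.05. In siCon the points run from -3.78 (Nlrp4f) to -1.06 (Nlrp4c), and in siEchs1 from -1.81 (Nlrp4e) to 0.27 (Nlrp2).

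Within siEchs1, 4 of the 10 genes fell between E2C and L2C and none rose, where 2.73% of all genes fell, 11.8% rose and 14.6% were called in either direction. The split of all genes was 2090 higher and 482 lower, and 1127 against 752 after quantile normalization. Nlrp4e (log2 difference -1.81, adjusted p = 0.0243), Nlrp4f (-1.74, 0.0146), Nlrp9c (-1.13, 0.0188) and Nlrp4a (-0.98, 0.0400) fell. The libraries of these 4 genes did not overlap, all being lower at L2C, where 8.07% of all genes were lower and 22.9% higher in this way. None of these calls held when both groups were fitted alone, and none held without replicate 1 of siEchs1 L2C. Without replicate 3 of siEchs1 E2C, 7 genes fell, the added ones being Nlrp4b (log2 difference -1.32, adjusted p = 0.0105), Nlrp9a (-1.28, 0.0188) and Nlrp9b (-0.96, 0.0203). Over all genes, 2576 were then called higher and 897 lower. Nlrp14 had a log2 difference of -0.13 with a 95% interval of -1.12 to 0.86, and Nlrp2 one of 0.27 with an interval of -0.92 to 1.47.

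The difference of the siRNA effect between the stages, which is the interaction term of the fit, was tested for each gene. It was called for 3 of the 10 genes, all with a higher value at L2C, where 5.65% of all genes were called in that direction and 17.2% in either. The split of all genes was 997 higher and 2042 lower, 1583 against 1429 after quantile normalization and 823 against 2407 after rescaling. Nlrp9b (2.61 ± 0.73 on the log2 scale, adjusted p = 0.0299), Nlrp4a (2.59 ± 0.41, 0.00380) and Nlrp4f (2.03 ± 0.58, 0.0321) were called. Nlrp9c (1.22, adjusted p = 0.0512) and Nlrp14 (1.94, 0.0559) did not pass, nor did Nlrp4b (2.06, 0.0887), Nlrp9a (1.63, 0.0917) and Nlrp2 (1.56, 0.180). Nlrp4a kept its call under every setting tried, while Nlrp4f and Nlrp9b did not. Nlrp9b did not pass when any siCon library, or replicate 2 or 3 of siEchs1 L2C, was left out (adjusted p from 0.05098 to 0.07418), nor without the filter (0.07597). Nlrp4f did not pass without any one of the siCon E2C libraries, replicate 2 of siEchs1 E2C, replicate 3 of siCon L2C or replicate 2 or 3 of siEchs1 L2C (adjusted p from 0.0545 to 0.08323). It also did not pass after quantile normalization (0.08842), after rescaling (0.07946) or without the filter (0.0754). Without replicate 3 of siEchs1 E2C 6 genes were called, and without replicate 1 of that group 7. Over all genes, 1301 were higher and 2791 lower without replicate 3, and 1528 were higher and 2566 lower without replicate 1.

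Set against siCon E2C, which shares libraries with the comparisons above, siEchs1 L2C held 0.515 of the family sum in FPKM and 0.774 of it as a percent of total FPKM. There, 2 genes were higher, Nlrp14 (log2 difference 1.60, adjusted p = 0.0122) and Nlrp2 (2.43, 0.00317), and 4 were lower, Nlrp4a (-1.28, 0.003276), Nlrp4e (-2.07, 0.00350), Nlrp4f (-2.10, 0.00122) and Nlrp9c (-2.69, 1.72e-05). Of all genes, 31.5% were higher, 15.7% lower and 47.3% called in either direction. The split was 5569 higher against 2779 lower, 4193 against 3990 after quantile normalization and 6757 against 2069 after rescaling. Without overlap 2 NLRP genes were higher and 5 lower, where 42.9% of all genes were higher and 23.5% lower. Nlrp9b had 156 to 199.7 FPKM in siEchs1 L2C and 149 to 195 in siCon E2C, with overlapping libraries and a log2 difference of 0.11 (95% interval -1.02 to 1.23). Nlrp9a, at 86.3 to 101 against 168 to 212 FPKM, did not overlap and did not pass (log2 difference -0.99, adjusted p = 0.0843). Nlrp9a passed when the 2 groups were fitted alone (adjusted p = 0.0008535) and after quantile normalization (log2 difference -1.20, adjusted p = 0.0219), and Nlrp4b passed as higher when fitted alone (log2 difference 0.71, adjusted p = 0.03996).

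In the treatment experiment no NLRP gene passed the test in any of the 3 comparisons, each with 2 libraries per group, in limma's fit over 13789 genes. For crotonate against DMSO, 0.529% of all genes were called in either direction (0.21% higher, 0.319% lower). For acetate against DMSO the share was 0.0653% (0.00725% higher, 0.058% lower), and for crotonate against acetate 1.86% (1.02% higher, 0.841% lower). These shares rest on 73, 9 and 257 genes, and leaving out 1 library moved the counts to 0 to 13, 1 to 911 and 0 to 1486. Crotonate against DMSO had 0 calls without either crotonate library. Crotonate against acetate had 0 without crotonate replicate 2 and 1486 without acetate replicate 2, and acetate against DMSO had 911 without acetate replicate 2. With all libraries, the calls of crotonate against acetate split into 141 higher and 116 lower, and into 118 against 48 after rescaling. At an unadjusted p under 0.05 the counts of NLRP genes were 3, 0 and 6, where 2254, 822 and 2694 of the 13789 genes tested were. The design text says only that zygotes received either salt, and no dose is given. Crotonate and acetate are both short-chain carboxylates, and crotonate has a longer carbon chain with a double bond.

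**Figure D5:**
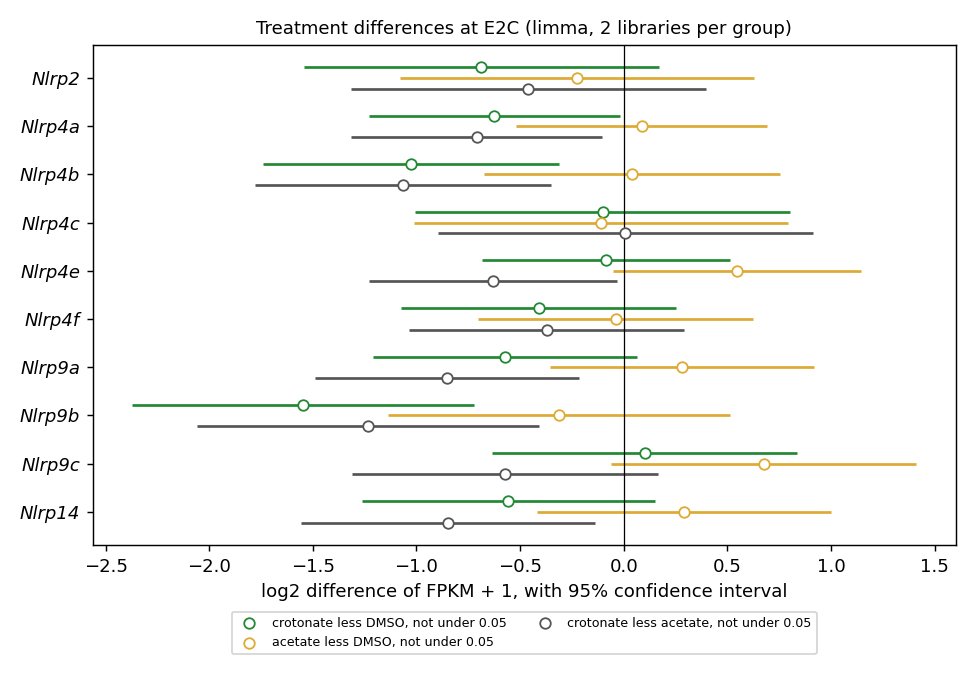
Log2 difference for each NLRP gene between the treatment groups at E2C, with 95% confidence intervals from limma; no point has an adjusted p under 0.05. Both crotonate comparisons place Nlrp9b lowest, at -1.55 against DMSO and -1.24 against acetate.

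The crotonate libraries had the lowest NLRP sums, 2836 and 2527 FPKM, against 3226 and 3762 with DMSO and 4474 and 3644 with acetate. As a percent of total FPKM the means were 0.332 with crotonate, 0.453 with DMSO and 0.461 with acetate. In crotonate against DMSO, 7 of the 10 genes were lower in both crotonate libraries than in both DMSO libraries, where 38.4% of all genes tested showed this and 19.2% were higher in this way. In crotonate against acetate the count was 9 of 10, where 27.6% of all genes showed it. Both comparisons share the crotonate libraries. Mitochondrial RNA was 19.8 and 16.7% of the total with crotonate, 13.4 and 12.2% with DMSO and 20.7 and 11.9% with acetate, and its part in these differences was tested only by the rescaling. The median log2 difference was -0.56 for the 10 genes and -0.15 for all genes against DMSO, and -0.67 and -0.09 against acetate.

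Nlrp9b measured 101 and 116 FPKM with crotonate, 247 and 409 with DMSO and 202 and 324 with acetate. The crotonate libraries were below the other 4, with a log2 difference of -1.55 (95% interval -2.37 to -0.72, adjusted p = 0.0963) from DMSO and of -1.24 (-2.06 to -0.41, 0.111) from acetate. Nlrp4b measured 34.05 and 30.6 FPKM with crotonate, 60.1 and 74.3 with DMSO and 57.1 and 82.7 with acetate. It had log2 differences of -1.03 (95% interval -1.74 to -0.31, adjusted p = 0.159) from DMSO and -1.07 (-1.78 to -0.35, 0.111) from acetate. Fitted with only the crotonate and DMSO libraries, Nlrp9b (adjusted p = 0.0316) and Nlrp4b (0.0367) passed. In that fit the calls over all genes went from 73 to 1209, of which 327 were higher and 882 lower. Without replicate 1 of acetate, the log2 differences of crotonate from acetate were -1.57 for Nlrp9b and -1.33 for Nlrp4b.

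Nlrp14 measured 129 and 91.6 FPKM with crotonate, 141 and 182 with DMSO and 174 and 222 with acetate, and its interval of the difference from DMSO ran from -1.26 to 0.15 on the log2 scale. Nlrp4a measured 285 and 246 FPKM with crotonate, 373 and 448 with DMSO and 449 and 419.8 with acetate. Crotonate was again the lowest group in both genes. Nlrp9c, in contrast, measured 955 and 686 FPKM with crotonate and 748 and 761 with DMSO, so these groups overlapped, and it measured 1496 and 971 with acetate.

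Between acetate and DMSO, 2 genes had libraries that did not overlap, both higher with acetate, where 16.2% of all genes were higher and 18.6% lower in this way. Nlrp9c was one, with a log2 difference of 0.67 (95% interval -0.06 to 1.41, adjusted p = 0.784). Nlrp4e was the other, with 219.7 and 227 FPKM against 147 and 159 (log2 difference 0.55, 95% interval -0.05 to 1.14, adjusted p = 0.784). The other 8 genes overlapped, with log2 differences of -0.31 to 0.29.

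The level order across groups separated the members. Nlrp2 and Nlrp14 had their highest means in both siEchs1 groups, which overlapped with each other, then came siCon E2C and, apart from it, siCon L2C. In Nlrp14, siEchs1 E2C also overlapped with siCon E2C, through replicate 3 (420 against 262 to 426 FPKM). Nlrp4b, Nlrp4c and Nlrp9b had the same order of means, but both siEchs1 groups overlapped with siCon E2C. Nlrp4a, Nlrp4e, Nlrp4f and Nlrp9a were highest in siCon E2C and lowest in siCon L2C. Both E2C groups overlapped in Nlrp4e, Nlrp4f and Nlrp9a, and both L2C groups overlapped in Nlrp4e. Nlrp9c alone had its lowest mean in siEchs1 L2C, and its 4 groups did not overlap with their neighbours in that order.

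Across the 12 siRNA libraries, Pearson's r of log2(FPKM + 1) between pairs of members had a median of 0.71 over 45 pairs. It ran from -0.15 for Nlrp2 and Nlrp9c to 0.97 for Nlrp4b and Nlrp9b. The promoter pair Nlrp4b and Nlrp4c had r = 0.96, and the pair Nlrp9a and Nlrp9c, whose promoters were more alike, had r = 0.69. The promoters of Nlrp4b and Nlrp9b, the pair with the highest r, were 58.4% identical, near the median of 58.0%. A link between promoter likeness and r was not tested. Among 8524 other genes, those whose profile was most like that of Nlrp14 were Tdrd12, Rnaset2b and Acot9 (r = 0.99 each). For Nlrp9c they were Tank (0.98), Timm21 (0.97) and Stam (0.97), and for Nlrp4f Med30 (0.98), Polb (0.97) and Ggct (0.97). These values describe 12 libraries that share stage and siRNA groups.

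The list of 10 partner genes holds the subcortical maternal complex genes Nlrp5, Ooep, Tle6, Khdc3, Padi6 and Zbed3 and the genes Uhrf1, Dnmt1, Kdm2a and Slc8b1, which have been tied to Nlrp14 or its partners. In siEchs1 at E2C, 5 of the 10 rose and none fell, with a median log2 difference of 1.59, where 11.0% of all genes rose and 9.31% fell. These were Padi6 (3.74, adjusted p = 0.00411), Dnmt1 (3.30, 0.00704), Khdc3 (4.82, 0.00801), Tle6 and Nlrp5. Padi6, an egg-specific relative of the arginine deiminases, measured 27.3, 17.8 and 23.1 FPKM in siCon E2C and 499, 945 and 64.2 in siEchs1 E2C. All 3 siEchs1 libraries were above siCon, and replicate 3 was again far below replicates 1 and 2.

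At L2C, 7 of the 10 partners rose and 1 fell, with a median log2 difference of 3.37, where 21.9% of all genes rose and 26.9% fell. Ooep, which encodes a small subunit of the complex, measured 426, 455 and 531 FPKM in siCon E2C, 30.5, 30.3 and 45.3 in siCon L2C and 940.4, 1148 and 1141 in siEchs1 L2C. It fell with stage in siCon (log2 difference -3.72, adjusted p = 0.000128) and was higher in siEchs1 at L2C (4.91, 6.02e-05), with no overlap in either comparison. The partner that fell in siEchs1 at L2C was Slc8b1, a mitochondrial sodium and calcium exchanger, at 3.29, 4.15 and 9.04 FPKM in siCon L2C against 0.61, 0.11 and 0.14 (log2 difference -2.26, adjusted p = 0.000353). Between the stages in siCon, 3 partners rose and 1 fell (Ooep), with a median of 1.33, where 35.8% of all genes rose and 14.4% fell. In siEchs1, 2 rose between the stages, where 11.8% of all genes did. In crotonate against DMSO limma called 0 of 9 partners tested, with 6 at an unadjusted p under 0.05, where 2254 of 13789 genes were. In crotonate against acetate 1 partner, Ooep, fell (log2 difference -1.71, adjusted p = 0.0410), where 0.841% of all genes fell.

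Of 29 other NLR and inflammasome genes, 14 reached the filter in the siRNA experiment. Between the stages in siCon 6 of the 14 rose and 3 fell, with a median log2 difference of 0.81, where 35.8% of all genes rose and 14.4% fell. Nlrp3, the inflammasome sensor, was listed at 0, 0.01 and 0 FPKM in siCon E2C and measured 2.06, 3.14 and 8.06 in siCon L2C (log2 difference 2.28, adjusted p = 0.000142). In siEchs1 at E2C 2 rose (Txnip, 3.69, and Nod2, 0.89) and 2 fell, among them Nlrc3 (-2.16), with a median of -0.27. These counts of 14 are near the 11.0% and 9.31% of all genes that rose and fell. At L2C 4 of the 14 rose and 7 fell, with a median of -1.02, where 21.9% of all genes rose and 26.9% fell, and the lowest adjusted p values were those of Nlrp12 (-1.94), Nlrc3 (-1.79) and Ciita (-2.86).

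The pseudogene Nlrp4g, which shared 7.35% of its 50-nt stretches with Nlrp4f, measured 409.8, 339.9 and 408 FPKM in siCon E2C. It fell to 94.55, 90.3 and 43.1 FPKM in siCon L2C (log2 difference -2.41, adjusted p = 0.000144). In siEchs1 L2C it measured 159, 234 and 221 FPKM and was called higher than siCon (1.48, 0.00416), a value chosen after it was seen. The copies that share stretches with Nlrp4e were looked up after these stretches were found, and they did not move alike between the stages in siCon. Gm16443, which shares the most with Nlrp4e, measured 1.06, 2.54 and 0.41 FPKM in siCon E2C and 6.79, 6.81 and 2.48 in siCon L2C, and rose (log2 difference 1.45, adjusted p = 0.0230), against the direction of Nlrp4e. Its libraries overlapped. Gm4541, at 20.4 to 76.6 FPKM in siCon E2C and 6.96 to 8.71 in siCon L2C (-2.43, 0.00280), and Gm8486, at 8.95 to 30.4 and 5.32 to 6.21 FPKM (-1.44, 0.0285), fell.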

How the data were processed

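The deposited files hold 1 FPKM value per gene and library for 18 embryo libraries, computed by the authors; per the labels' protocols, Smart-seq2 cDNA from oligo-dT priming of tubes of 5 to 10 embryos was sequenced as paired reads of 150 nt. Cutadapt 1.16, STAR and the mm10 build are named in the submitters' processing notes; which tool computed FPKM, and on which annotation, is not given in the sources used here. Each file listed 55335 genes; 55098 were kept after dropping 108 symbols listed more than once and 24 that had become dates. FPKM depends on the makeup of the whole library, and read depth is unknown. Both experiments were fitted separately, and no test crosses them.

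Titles gave each library its group and number. Column headers swap the numbers 2 and 3 within siEchs1 L2C, which leaves the group as it is. limma 3.58.1 (R 4.3.3; trend and robust) was fitted to log2(FPKM + 1), with fold changes on that scale, which understates changes of low genes. Genes needed 1 FPKM in 3 siRNA or 2 treatment libraries. P-values were adjusted over all genes tested by Benjamini-Hochberg, and an adjusted p under 0.05 was called. The scripts were tested on simulated data. The genes and lists were chosen with earlier results of these data known. Named genes were the 10 members, the genes of the lists by smallest p in each comparison, and the 3 genes most like each of the 3 most abundant members (mean of at least 5 FPKM). Alternatives were quantile normalization, rescaling without mitochondrial and ribosomal RNA, no filter, a pseudocount of 0.1, no variance trend, the replicate number as a block, fits of the compared groups alone, and leaving out each library. Sequences were read from RefSeq promoters (GRCm38.p6) and GENCODE M21.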

Additional observations from a re-analysis of the deposited data

Results flagged for a closer look

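The effect of siEchs1 differed between L2C and E2C by the interaction test in 3 NLRP genes. The difference was 2.59 on the log2 scale for Nlrp4a, 2.03 for Nlrp4f and 2.61 for Nlrp9b, with limma's adjusted p of 0.00380, 0.0321 and 0.0299. Nlrp4a had a log2 difference of -0.30 between siEchs1 and siCon at E2C and of 2.29 at L2C. Nlrp4f had -0.36 and 1.67, and Nlrp9b 0.28 and 2.89. Without replicate 3 of siEchs1 E2C the differences were 2.61, 2.44 and 1.82. Nlrp4a kept its call under every setting tried, while Nlrp4f and Nlrp9b lost theirs under several. Among these were quantile normalization for Nlrp4f (adjusted p = 0.08842) and no filter on low values for Nlrp9b (0.07597). No group held enough libraries to look for single outlying values.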

How the results depend on the processing

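The counts of NLRP genes called kept within 1.5 times of the reported ones for siEchs1 at L2C, for stage in siCon and for siEchs1 L2C against siCon E2C under every alternative. Of 10 genes, 3 were called in siEchs1 at E2C, against 1 with the groups fitted alone and 1 to 5 when 1 library was left out. For the difference of effects the count of 3 became 6 with quantile normalization, 1 without the filter and 1 to 7 with 1 library left out. For stage in siEchs1 the count of 4 became 2 without the filter, 0 with the groups fitted alone and 0 to 7 with 1 library left out. In crotonate against DMSO it went from 0 to 2 with the groups fitted alone, and in crotonate against acetate from 0 to between 0 and 2 with 1 library left out. The cause was not tested, except that fits of fewer libraries have fewer degrees of freedom. Where 1 library was left out of a pair, the lone library was assumed to vary like the others.

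Some log2 differences changed sign, and none of these values was called at that setting (lowest adjusted p 0.1556). After rescaling these were Nlrp4e (0.0146) and Nlrp9a (0.0421) for siEchs1 at E2C, and Nlrp4a (-0.0551) and Nlrp4b (-0.0991) for acetate against DMSO. After quantile normalization they were Nlrp4e for siEchs1 at L2C (-0.0132), Nlrp14 for stage in siEchs1 (0.32), Nlrp4c (-0.44) and Nlrp9b (-0.0172) for siEchs1 L2C against siCon E2C, Nlrp4c (0.11) and Nlrp4e (0.0899) for crotonate against DMSO, and Nlrp4a (-0.0843) and Nlrp4c (0.0253) for acetate against DMSO.

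With 1 library left out, these ranges crossed 0. For siEchs1 at E2C, Nlrp4e ran from -0.84 to 0.13, Nlrp9a from -0.53 to 0.28 and Nlrp9b from -0.20 to 1.07. For siEchs1 at L2C, Nlrp4e ran from -0.26 to 0.33, and for the difference of effects from -0.0522 to 0.92. For stage in siEchs1, Nlrp2 ran from -0.58 to 0.70, Nlrp9b from -0.96 to 0.31 and Nlrp14 from -0.78 to 0.28. For crotonate against DMSO, Nlrp4c ran from -0.35 to 0.15, Nlrp4e from -0.22 to 0.0512 and Nlrp9c from -0.14 to 0.34. For crotonate against acetate, Nlrp4c ran from -0.34 to 0.36. For acetate against DMSO, Nlrp2 ran from -0.54 to 0.091, Nlrp4a from -0.0455 to 0.22, Nlrp4b from -0.22 to 0.30, Nlrp4c from -0.46 to 0.24, Nlrp4f from -0.30 to 0.23 and Nlrp9b from -0.67 to 0.0503.

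Counts over all genes moved too: siEchs1 at E2C from 3578 to 1807 and stage in siEchs1 from 2572 to 827 with the groups fitted alone, the difference of effects from 3039 to 1794 with a pseudocount of 0.1, and crotonate against DMSO from 73 to 1209 with the groups fitted alone. With 1 library left out, siEchs1 at E2C ran from 1748 to 6496, the difference of effects from 1296 to 4094, stage in siEchs1 from 1121 to 3473, crotonate against DMSO from 0 to 13, acetate against DMSO (9) from 1 to 911 and crotonate against acetate (257) from 0 to 1486. Same-numbered siRNA libraries had correlations of their deviations from -0.101 to 0.111, so the numbers did not pair them, and 0 to 2 of 6 libraries correlated best with their own number. With the replicate number as a block, Nlrp4f lost its call in the difference of effects (adjusted p = 0.05389) and Nlrp4a in stage in siEchs1 (0.07767). With the numbers of the column headers, an alternative chosen after seeing the data, these were 0.05153 and 0.07287. Read depth is unknown, so no counting error can be given.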
